A study of Homo sapiens with 2 samples.

Results

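The 10 immediate early response genes examined here were FOS, FOSB, JUN, JUNB, JUND, EGR1, ATF3, IER2, IER3 and DUSP1, picked by gene symbol out of 55797 genes measured in H1-derived Stage 6 cells. H1 is an established human embryonic stem cell line, and Stage 6 is the end of a stepwise pancreatic differentiation in which some of the cells express insulin. The culture was split in 2. Live cells (1 library) were neither fixed nor sorted, and their RNA was isolated with the RNeasy kit. Processed cells (1 library) went through MARIS, in which single cells are fixed with 4% PFA and permeabilized, antibodies are applied, and the cells pass a sorter, here with all of them collected, before RNA isolation with a modified RecoverAll kit. Whether the live cells were also dispersed to single cells is not given in the sources used here. All 10 genes were found once in each library with status OK, and all 10 reached 1 FPKM in both, where FPKM is the number of sequenced fragments per unit of exon length, scaled to the size of the library.

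Immediate early genes are transcribed within minutes of a stimulus, without need for new protein synthesis, and most of their mRNAs are short-lived. Growth factors, calcium and stress reach them through MAP kinases that act on factors already bound at their promoters, among them SRF with its ELK partners and CREB. FOS and FOSB form AP-1 dimers with JUN, JUNB or JUND, EGR1 is a zinc finger activator, and DUSP1 is a phosphatase that switches MAP kinases off again. The same genes are known to respond when tissue is dispersed to single cells.

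The promoters of 4 members are shown because FOS and FOSB had the highest ratios of processed to live cells, whereas JUND and EGR1 were among the members slightly lower in processed cells, and all 4 promoters hold the same short motif. Each run is the 250 bases before the RefSeq start on GRCh38.p14, 5′ to 3′ on the strand of the gene, at chr14:75278578-75278827 (+) for FOS, chr19:45467746-45467995 (+) for FOSB, chr19:18281623-18281872 (-) for JUND and chr5:138465229-138465478 (+) for EGR1. Capitals mark the half-site of the cAMP response element (TGACG on either strand) and, in EGR1, the SRF-binding CArG box.
FOS: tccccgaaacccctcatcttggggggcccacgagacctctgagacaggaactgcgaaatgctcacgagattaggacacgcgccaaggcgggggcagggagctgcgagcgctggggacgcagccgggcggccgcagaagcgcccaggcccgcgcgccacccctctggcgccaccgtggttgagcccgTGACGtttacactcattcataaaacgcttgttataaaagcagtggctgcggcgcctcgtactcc
FOSB: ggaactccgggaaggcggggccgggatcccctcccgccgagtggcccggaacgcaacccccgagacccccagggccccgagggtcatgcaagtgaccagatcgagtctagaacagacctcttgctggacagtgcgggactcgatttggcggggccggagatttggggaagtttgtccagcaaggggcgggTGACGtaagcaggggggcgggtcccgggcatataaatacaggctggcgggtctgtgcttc
JUND: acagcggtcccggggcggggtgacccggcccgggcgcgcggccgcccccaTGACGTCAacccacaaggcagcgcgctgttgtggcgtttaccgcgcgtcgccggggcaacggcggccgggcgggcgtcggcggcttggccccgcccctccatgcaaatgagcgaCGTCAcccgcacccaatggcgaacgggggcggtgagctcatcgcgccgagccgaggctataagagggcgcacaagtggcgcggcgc
EGR1: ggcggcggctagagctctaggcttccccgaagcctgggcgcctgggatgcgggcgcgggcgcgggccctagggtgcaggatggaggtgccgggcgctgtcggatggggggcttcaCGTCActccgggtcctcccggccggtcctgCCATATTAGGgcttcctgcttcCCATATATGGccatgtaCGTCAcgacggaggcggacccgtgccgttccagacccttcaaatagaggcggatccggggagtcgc
A half-site was found in 8 of the 9 members with a RefSeq promoter entry (DUSP1, EGR1, FOS, FOSB, IER2, JUN, JUNB and JUND), and in 21.2% of all 35116 promoter windows of this length. No half-site was found for ATF3, which has 2 windows, and IER3 was not matched. The full element, TGACGTCA on either strand, which contains the half-site, was found in DUSP1 and JUND and in 1.65% of all windows. CArG boxes were found in EGR1 (2 boxes) and in 1.16% of all windows. Bases outside these 250 were not searched, so a member without a motif here may hold it elsewhere. The TATA box letters TATAAA, on either strand, were present in ATF3, DUSP1, FOS, FOSB and JUNB, and in 10.7% of all windows. The AP-1 letters TGANTCA were found in 0 of the 9 members and in 6.57% of all windows, the related letters TGACATCA in ATF3 and JUN and in 2.37%, and the EGR1 letters GCGNGGGCG in EGR1 and in 8.41%, each on either strand. The half-site was thus found in members that were higher in processed cells (FOS, FOSB, DUSP1 and IER2) and in members that were lower (JUNB, JUND and EGR1), and the full element in one of each.

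At the level of the whole libraries, FPKM summed to 510713 in the live and 499398 in the processed library. Upper bounds of the sparsest genes lay at 1 + 2/√n times FPKM, as 2 SD of n counted fragments give (131 live and 163 processed genes at n = 1, within 0.0005). In genes with a single annotated transcript, 1 fragment was worth 0.0101 FPKM kb in live and 0.0109 FPKM kb in processed cells. Of the markers of other cells in the culture, 3 of 4 stromal genes were lower in processed cells with bounds that did not overlap, as were 43.7% of all genes with at least 1 FPKM in at least one library. The summed FPKM of the 4 was 57.6 in the live and 42.4 in the processed library. Their transcripts are long, at a median of 5807 nt, and longer transcripts were lower in processed cells at large, as given below. Pancreatic progenitor markers summed to 166 and 173 FPKM and epithelial markers to 3020 and 2813. The 6 endocrine markers (INS, GCG, SST, CHGA, CHGB and NEUROD1) summed to 2290 and 2278. CHGA, at 1794 and 1741 FPKM, made up most of both sums and had status FAIL in processed cells. With separate bounds, INS, SST and NEUROD1 were higher and CHGB was lower in processed cells, calls made for 28.1% and 43.7% of all genes. The pluripotency markers POU5F1 and NANOG summed to 9.19 and 15.9 FPKM. POU5F1 had 7.92 and 8.53 FPKM with overlapping bounds, whereas NANOG had 1.27 and 7.34 FPKM with separate bounds. These values are uncertain because both genes have near-identical processed pseudogenes. Endothelial and blood markers summed to 0.397 and 0.312 FPKM. Of these, PTPRC was listed at 0 in processed cells and PECAM1 was not analysed here. In such bulk samples, fewer cells of a type, less RNA per cell and a dependence on transcript length cannot be told apart. The part of these markers in the results that follow was not tested.

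Transcripts of all 10 genes were thus present before any fixation, at levels that spanned from 1.93 FPKM (FOSB) to 118 FPKM (JUND) in live cells. JUND was followed by EGR1, JUN, FOS, IER2, DUSP1, IER3, ATF3, JUNB and FOSB, and within this order only the bounds of IER3 and ATF3 overlapped. JUND held rank 556 among all genes in live cells and FOSB rank 14067. In processed cells FOS moved above EGR1 and JUN to second place after JUND, ATF3 moved above IER3, and the only neighbours with overlapping bounds were EGR1 and JUN. FOS thereby went from rank 1379 to rank 839 among all genes.

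**Figure D1:**
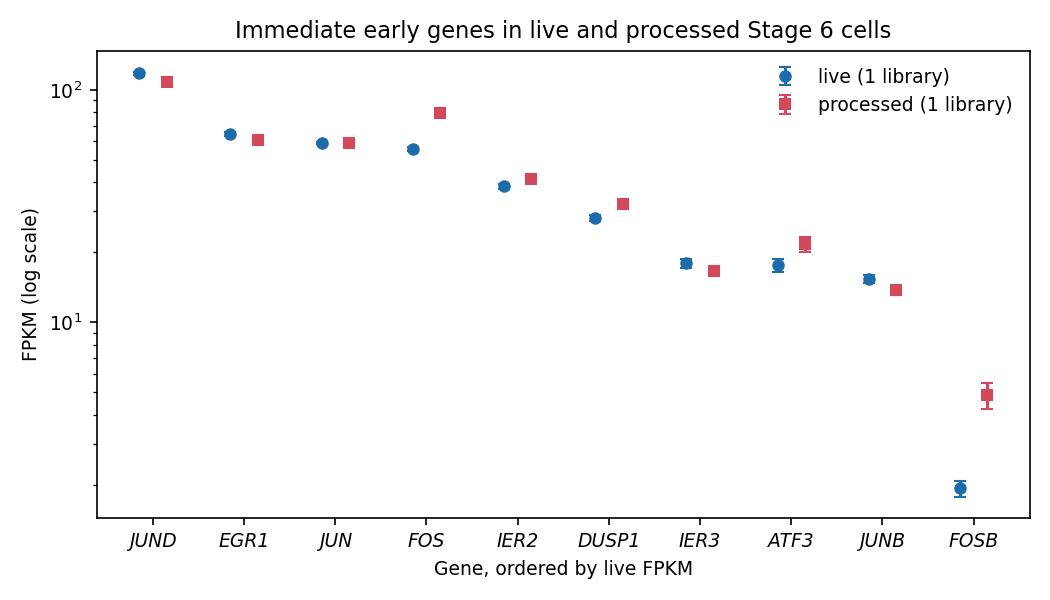
FPKM of the 10 immediate early genes on a log scale in the live library (circles) and the processed library (squares), ordered by live FPKM. Error bars are the deposited FPKM bounds. FOSB shows the widest gap, from 1.93 to 4.86 FPKM, and the points of JUN lie level at 59.1 and 59.0 FPKM.

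FOS (chromosome 14, 75745477 to 75748933, + strand, GRCh37) encodes the founding member of the FOS family of AP-1 subunits. Its level was 55.6 FPKM in the live library (bounds 54.4 to 56.9) and 79.7 FPKM in the processed library (bounds 75.8 to 83.6). The processed library was 1.43-fold higher and the bounds were well apart, a log2 ratio of 0.51 with a range of 0.41 to 0.61 from the bounds. This ratio, as all others here unless stated, is log2((processed FPKM + 1) / (live FPKM + 1)), which understates the change of low genes. Of the 2049 genes with a mean FPKM within 2-fold of that of FOS, 5.37% had a ratio at least as high.

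FOSB (chromosome 19, 45971253 to 45978437, + strand) encodes a FOS relative with the same dimer partners, and it was the least expressed member. It had 1.93 FPKM in the live library (bounds 1.78 to 2.08) and 4.86 FPKM in the processed library (bounds 4.25 to 5.47). The bounds were far apart, and the ratio of the untransformed FPKM was 2.52. With the pseudocount of 1 the log2 ratio was 0.999, which lies 0.000765 under the 2-fold line, so that the call at 2-fold turns on the pseudocount and on the scaling. Among 4968 genes of like level, 9.70% had a ratio at least as high. FOSB lies within the span given for ERCC1, a DNA repair gene on the opposite strand, which had 27.3 FPKM in the live and 19.7 FPKM in the processed library. The exons of the pair share 0 bases in GENCODE release 44, and whether reads were counted by strand is not given in the sources used here.

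ATF3 (chromosome 1, 212738676 to 212794119, + strand), a stress-induced factor that dimerizes with JUN proteins, followed FOSB and FOS in the order of ratios. It had 17.6 FPKM (bounds 16.5 to 18.7) in the live and 21.7 FPKM (bounds 20.0 to 23.4) in the processed library. Its level was 1.23-fold higher in the processed library, with a log2 ratio of 0.29 and a range of 0.09 to 0.48 from the bounds. Of 5817 genes of like level, 17.4% had a ratio at least as high.

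The JUN family did not share this direction in the FPKM as deposited. JUN (chromosome 1, 59246465 to 59249785, - strand), the main dimer partner of FOS, had 59.1 FPKM in the live library (bounds 58.2 to 59.9) and 59.0 FPKM in the processed library (bounds 58.1 to 59.9). The bounds of JUN overlapped almost in full, and the range of its log2 ratio from the bounds was -0.04 to 0.04. JUND (chromosome 19, 18390563 to 18392432, - strand), which unlike its relatives is expressed steadily in most resting cells, had 118 FPKM (bounds 116 to 119) and 108 FPKM (bounds 106 to 109). JUNB (chromosome 19, 12902310 to 12904124, + strand) was the lowest of the family, with 15.3 FPKM (bounds 14.7 to 16.0) and 13.7 FPKM (bounds 13.1 to 14.3). Both were slightly lower in processed cells with bounds that did not overlap, at log2 ratios of -0.13 for JUND and -0.15 for JUNB. Both ratios stayed below 0 under all 3 scalings tried, whereas that of JUN turned above 0 under each of them, to between 0.03 and 0.10. After scaling by the median ratio, 0 members were lower with separate bounds, so the bounds of JUND and JUNB were then not separate. The values of JUND and JUNB are close to the median of -0.09 over all 17326 genes with at least 1 FPKM in at least one library. JUNB lies within the span of HOOK2, on the opposite strand, which had 48.2 and 52.0 FPKM, and 259 of the 1830 exonic bases of JUNB are shared with it in release 44.

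Ratios between members of one library do not depend on how the libraries are scaled. FOS stood at 0.942 times the FPKM of JUN in the live and at 1.35 times in the processed library. Against EGR1 the same quotient was 0.862 in the live and 1.31 in the processed library. The summed FPKM of FOS and FOSB was 57.6 in the live and 84.6 in the processed library, whereas JUN, JUNB and JUND together summed to 192 and 181. The composition of the JUN family was nearly the same in both libraries, with JUND at 61.3% and 59.7%, JUN at 30.7% and 32.7%, and JUNB at 7.99% and 7.61% of the family sum. FOSB made up 3.35% of the FOS and FOSB sum in the live and 5.75% in the processed library. With 1 library per condition, none of these differences has a replicate check among the sequenced libraries. The paper also compared live and processed Stage 6 cells on microarrays in replicate pairs, and reports that no gene differed consistently between them. Those arrays were not analysed here.

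EGR1 (chromosome 5, 137801179 to 137805004, + strand) was the second most abundant member in live cells. It had 64.5 FPKM (bounds 63.5 to 65.6) in the live and 60.8 FPKM (bounds 59.8 to 61.8) in the processed library. The bounds were separate by a small margin, the log2 ratio was -0.08, and it turned to 0.01 when the libraries were scaled by their median ratio. DUSP1 (chromosome 5, 172195093 to 172198198, - strand) had 28.0 FPKM (bounds 27.2 to 28.9) and 32.2 FPKM (bounds 31.3 to 33.1). DUSP1 was 1.15-fold higher in processed cells, a log2 ratio of 0.19, and its bounds did not overlap.

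The IER genes carry the name of the group, immediate early response. IER2 (chromosome 19, 13261229 to 13265722, + strand), a nuclear protein, had 38.5 FPKM (bounds 37.5 to 39.5) in the live and 41.2 FPKM (bounds 40.3 to 42.2) in the processed library. IER3 (chromosome 6, 30710976 to 30712331, - strand), a regulator of cell survival, had 18.0 FPKM (bounds 17.2 to 18.8) and 16.6 FPKM (bounds 15.8 to 17.4). IER2 was higher in processed cells by a log2 ratio of 0.10, with separate bounds, whereas the bounds of IER3 overlapped. The opposite-strand transcript CTC-250I14.6, with 18.7 FPKM in the live and 15.0 FPKM in the processed library, shares 946 of the 3079 exonic bases of IER2.

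Counted together, 5 of the 10 members (FOSB, FOS, ATF3, DUSP1 and IER2) were higher in processed cells with separate bounds, 3 (JUNB, JUND and EGR1) were lower, and for JUN and IER3 the bounds overlapped. Over all 17326 genes, the bounds were separate and higher for 28.1% and separate and lower for 43.7%, so that such a call is common in this pair of libraries. After scaling by the median ratio, 6 members were higher and 0 lower with separate bounds, beside 34.8% and 35.7% of all genes. After scaling to an equal sum without mitochondrial genes, 6 were higher and 1 lower, beside 31.99% and 38.7% of all genes. The bounds describe each library alone. None of the 10 members passed 2-fold in either direction, compared with 6.57% of all genes that were more than 2-fold higher and 6.19% that were more than 2-fold lower. Among genes within the FPKM range of the members these shares were 3.66% and 2.61%. FOSB did pass with a pseudocount of 0.1, without one and under all 3 scalings. The median log2 ratio of the members was 0.05, with values from -0.15 to 0.999. The shares of genes of like level given above are for the 3 members with the highest ratios. For the others, a ratio at least as high was found for 22.0% beside DUSP1, 29.9% beside IER2 and 39.5% beside JUN. A ratio at least as low was found for 40.4% beside JUND, 45.2% beside JUNB, 48.4% beside EGR1 and 49.1% beside IER3.

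**Figure D2:**
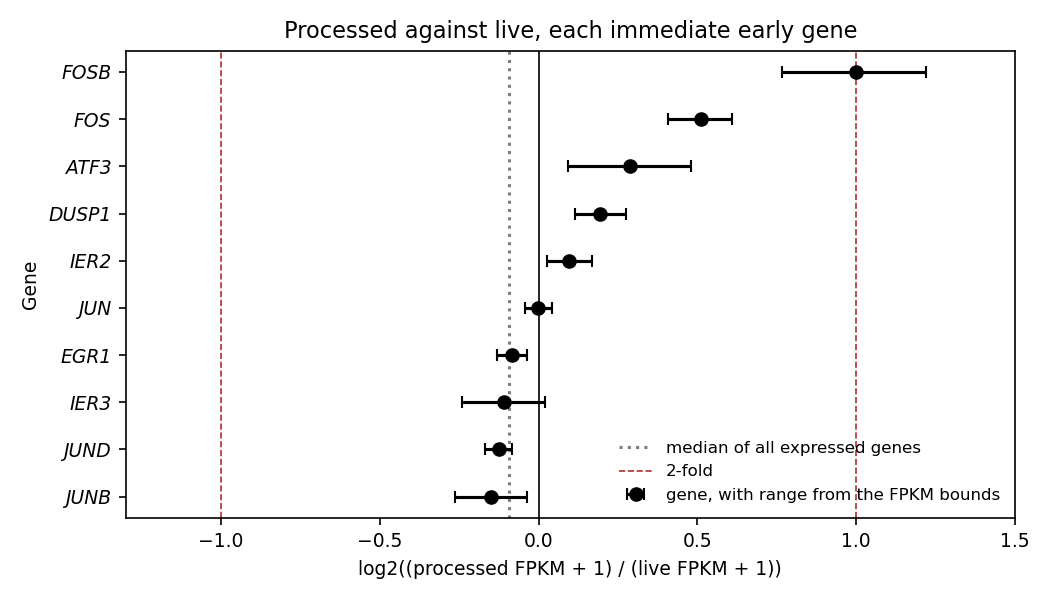
Log2 ratio of processed to live FPKM (pseudocount 1) for each immediate early gene, with bars from the lowest to the highest ratio that the FPKM bounds allow. Dashed lines mark 2-fold and the dotted line marks the median of all expressed genes, -0.09. FOSB at 0.999 touches the upper line, whereas the other 9 genes lie between -0.15 and 0.51. The sign of JUN turns under all 3 scalings tried and that of EGR1 under scaling by the median ratio.

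**Figure D3:**
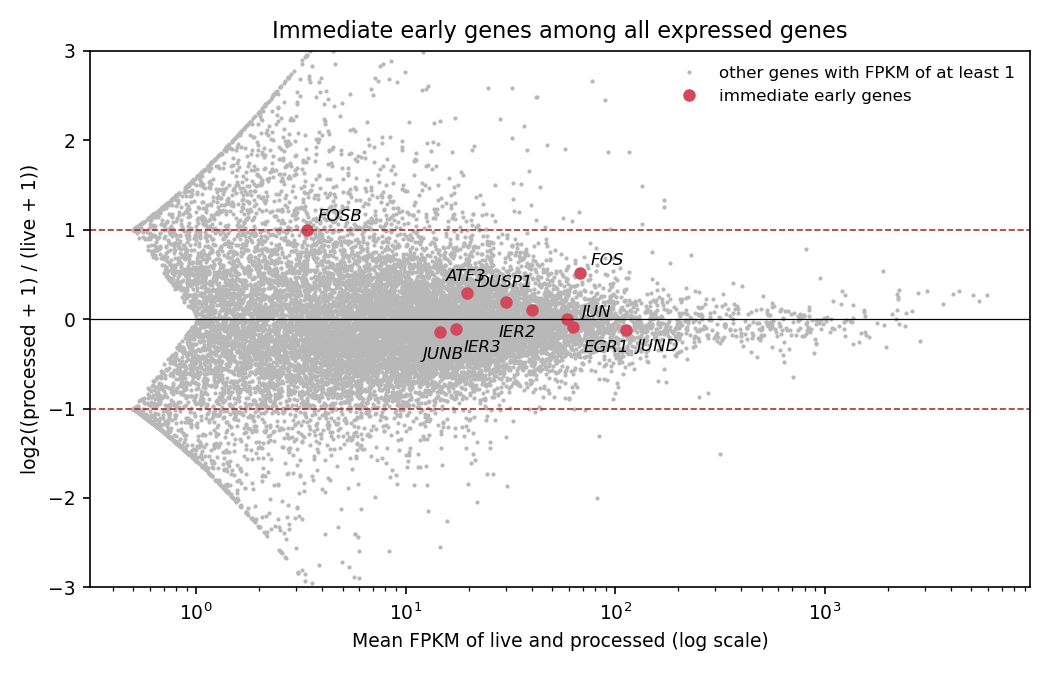
Log2 ratio (pseudocount 1) against mean FPKM on a log scale for genes with at least 1 FPKM in at least one library (grey, with 88 genes beyond the plotted range) and the 10 immediate early genes (red, named). Dashed lines mark 2-fold. FOS, at a mean of 67.7 FPKM, lies near the upper edge of the cloud, and 5.37% of genes of like level have a ratio at least as high.

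The 3 members with the highest ratios, picked out here by those ratios, also shared other features. FOS and ATF3 have 10 annotated transcripts each and FOSB has 12 in GENCODE release 44, a later release than the authors used. The other 7 members have 1 to 3. The log2 ratio lay between 0.29 and 0.999 in the 3 genes with 10 or more transcripts and between -0.15 and 0.19 in the other 7. Over protein-coding genes at large the medians ran in the same order but lay closer together, at -0.15 for 2571 genes with 1 to 3 transcripts, -0.13 for 5484 with 4 to 9 and -0.08 for 5518 with 10 or more.

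The bounds widened most in the same 3 of the 10 members. For FOS, the half-width of the bounds was 2.20% of FPKM in the live and 4.91% in the processed library, although the level itself was higher there. This is a widening of 2.23-fold, and 6.57% of 16533 genes had a relative half-width that at least doubled. The half-width of FOSB went from 7.94% to 12.5% and that of ATF3 from 6.34% to 7.79%. Among genes within 2-fold of the same mean FPKM, a widening at least as large was found for 1.32% beside FOS, 15.1% beside FOSB and 30.3% beside ATF3, so that the widening of ATF3 is common at its level. In the other 7 members it stayed at 0.894 to 1.10 times its live value.

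Put as fragments, the bounds of FOS were as wide as those of 8272 counted fragments in the live and 1657 in the processed library. The FPKM kb per fragment given above is a median taken from the bounds of single-transcript genes with at least 10 FPKM. From this value, the FPKM of FOS and the length of its canonical transcript less 170 nt, 10631 and 14151 fragments would lie behind it. The bounds of FOS thus corresponded to 77.8% of these fragments in the live and 11.7% in the processed library. FOSB went from 92.3% to 15.9% and ATF3 from 32.4% to 18.8%. The other 7 members lay at 79.6% to 104% in live and 83.1% to 103% in processed cells. JUNB, EGR1 and DUSP1 meet the rule for the genes behind the median per fragment. For such genes a share near the full number is largely built in, so the shares of the 7 are no separate check of this scale. The canonical transcript need not be the one expressed. The FPKM of the 3 members with the highest ratios in the processed library therefore carried a larger stated uncertainty than fragment numbers alone would give. The share of fragments given to each transcript is not in the files analysed here, and its part in these ratios was not tested.

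**Figure D4:**
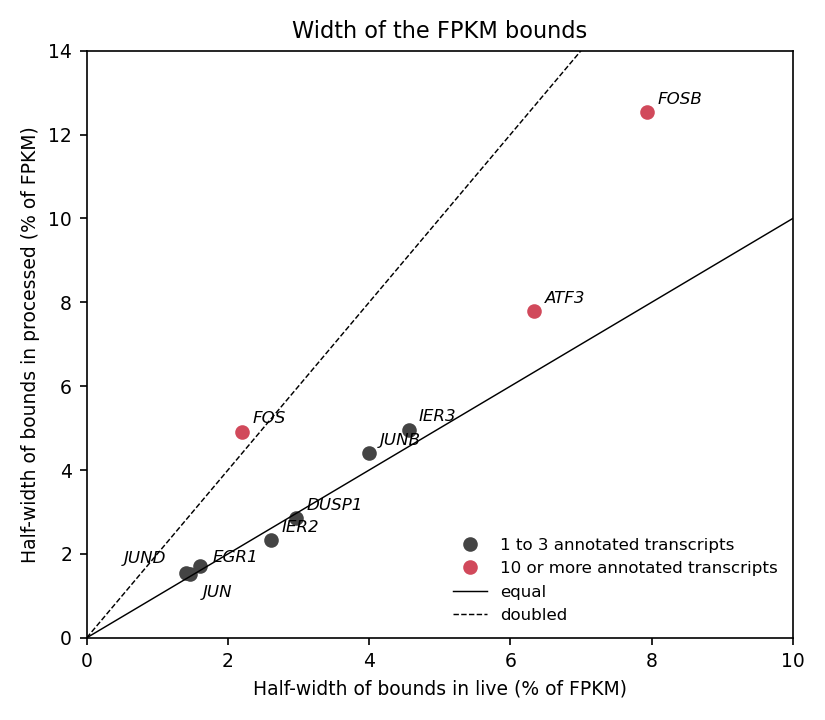
Half-width of the FPKM bounds as a percentage of FPKM in the live (horizontal axis) and processed library (vertical axis) for each immediate early gene, coloured by the number of annotated transcripts. The solid line marks equal and the dashed line doubled width. FOS, at 2.20% and 4.91%, lies above the dashed line, and the 7 genes with 1 to 3 transcripts follow the solid line.

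By their medians, the members are also shorter and richer in G and C than genes at large. Their canonical transcripts run from 1237 nt (IER3) to 3775 nt (FOSB), and JUN, JUNB and JUND have a single exon. The median length of the members was 2058.5 nt and their median GC content 56.9%. Over those of the 17326 genes that have an annotated canonical transcript, the medians were 2776 nt and 48.5%. FOSB, JUN and EGR1 are longer than this median. Both properties went with the ratio among protein-coding genes at large. The median log2 ratio was -0.02 for transcripts of more than 1000 and up to 2000 nt (2505 genes), -0.09 up to 4000 nt (4903 genes), -0.17 up to 6000 nt (2814 genes) and -0.22 above that (2481 genes). By GC content it was -0.19 at up to 45% (5086 genes) and -0.04 at more than 55% and up to 65% (3690 genes). Their part in the ratios of the members was not tested.

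Genes related to the members by protein family, rapid induction or pathway were more often lower than higher in processed cells, as genes at large were. The AP-1 and ATF relatives are listed by family, not by rapid induction. Of 13 AP-1 and ATF relatives, 11 reached 1 FPKM in at least one library, as counted in all lists here. Of these, 7 (63.6%) were lower and 3 (27.3%) higher in processed cells with separate bounds, beside 43.7% and 28.1% of all genes. The median log2 ratio of the 11 was -0.30. FOSL2, a FOS relative that is induced later and lasts longer, had 16.9 FPKM in the live and 9.86 FPKM in the processed library, a log2 ratio of -0.72. FOSL1 had 1.30 FPKM in live cells and was listed at 0 in processed cells. MAFF, a small MAF protein, had 3.38 and 1.53 FPKM. ATF5 was higher, at 10.3 and 14.9 FPKM. The remaining gene, ATF7, had status FAIL in live cells, with bounds that span the processed value.

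Among 16 other rapidly induced transcription regulators, 13 reached 1 FPKM, and the median was -0.15. With separate bounds, 7 of them (53.8%) were lower and 4 (30.8%) higher, beside 43.7% and 28.1% of all genes. EGR3, a paralogue of EGR1, was the only one of the 13 past 2-fold, from 0.409 FPKM (bounds 0.341 to 0.478) to 2.25 FPKM (bounds 1.77 to 2.72). It entered this list only through the processed library, where it was higher, so the filter itself favours such a ratio. The orphan nuclear receptor NR4A1 had 12.7 FPKM in the live and 16.3 FPKM in the processed library, and MYC had 9.52 and 11.4 FPKM. NAB2, a corepressor that binds EGR1, was lower at 11.2 and 6.94 FPKM.

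Of 27 other rapidly induced signalling and RNA decay genes, 26 reached 1 FPKM. With separate bounds, 14 (53.8%) were lower and 2 (7.69%) higher, beside 43.7% and 28.1% of all genes. For 10 genes of this list the bounds overlapped. Their median of -0.09 equalled that of all genes to 2 decimals. PLK3, a stress-responsive kinase, was past 2-fold at 3.73 FPKM (bounds 3.22 to 4.25) and 0.662 FPKM (bounds 0.417 to 0.908). NFKBIA, the inhibitor of NF-κB, had 28.7 and 21.4 FPKM. The kinase SGK1 had the highest log2 ratio of the list, 0.34, at 10.5 and 13.6 FPKM. Of 9 other MAP kinase phosphatases, 8 reached 1 FPKM. With separate bounds, 6 of these (75%) were lower and 0 higher, beside 43.7% and 28.1% of all genes. DUSP16, a phosphatase of JNK and p38, had 17.8 and 13.4 FPKM, and DUSP9 had 28.3 and 23.4 FPKM, whereas DUSP5 had 12.7 and 13.1 FPKM with overlapping bounds.

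The kinases and promoter-binding factors upstream of the members were present in both libraries, and all 31 listed genes reached 1 FPKM. In processed cells 19 (61.3%) were lower and 4 (12.9%) higher with separate bounds, beside 43.7% and 28.1% of all genes. The median log2 ratio of the 31 was -0.31. CREB1, which binds the cAMP response element, had 21.6 FPKM (bounds 20.4 to 22.8) in the live and 11.3 FPKM (bounds 10.4 to 12.3) in the processed library, the lowest ratio of the list at -0.87. The RAS protein NRAS had 27.2 and 15.2 FPKM. ELK3, an SRF partner, was higher at 2.70 and 3.83 FPKM. The canonical transcripts of this list have a median length of 4231 nt, compared with 2058.5 nt for the members.

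**Figure D5:**
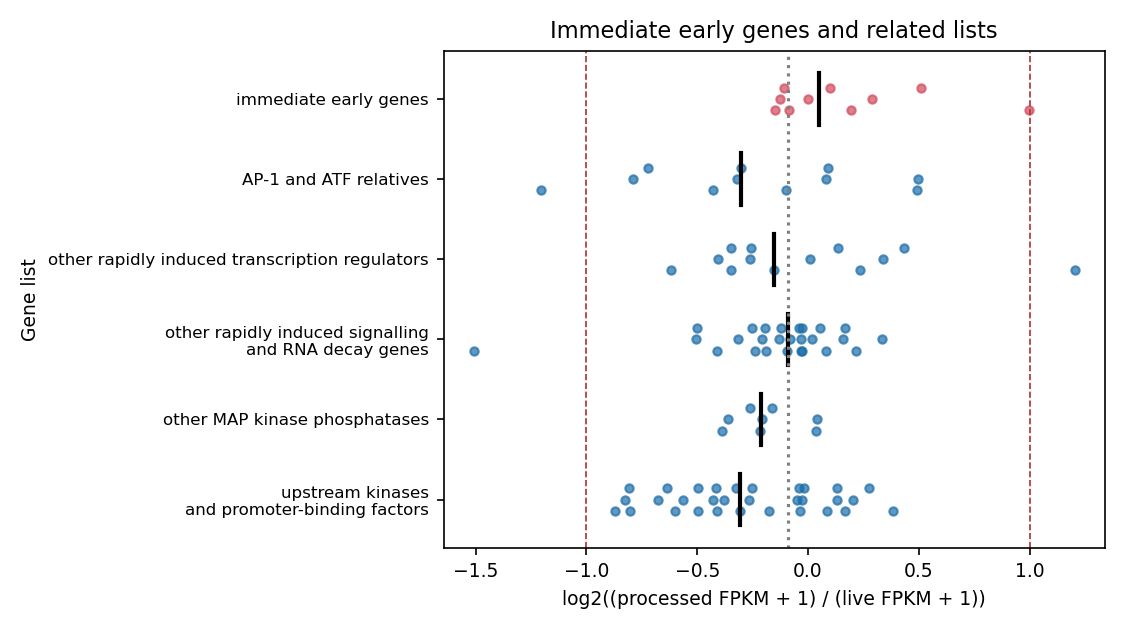
Log2 ratio of processed to live FPKM (pseudocount 1) for the immediate early genes (red) and 5 related lists (blue), 1 point for each gene with at least 1 FPKM in at least one library. Black bars are list medians, the dotted line is the median of all genes (-0.09) and dashed lines mark 2-fold. The medians of the related lists run from -0.31 to -0.09 and that of the immediate early genes is 0.05. Under scaling by the median ratio, the median of the signalling and RNA decay list turns to 0.01 and the signs of JUN and EGR1 turn.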

How the data were processed

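RNA from 1 live and 1 processed sample of H1-derived Stage 6 cells was sequenced as paired reads of 80 nt. The authors aligned reads to GRCh37/hg19 with STAR 2.2.0c guided by GENCODE and computed gene FPKM and its bounds with Cufflinks 2.0.2, per the labels and the paper. The deposited FPKM values are normalized for length and library size, and the level of the bounds is not stated. Libraries were joined by Ensembl identifier, and starts were counted from 1. Ratios used a pseudocount of 1, and genes with at least 1 FPKM in at least one library formed the background. With 1 sample per condition no test was made, and p-values are not given. Transcript numbers, lengths and GC content came from GENCODE release 44 on GRCh37. A canonical transcript was found for 99.5% of the 13573 protein-coding genes.

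The members and gene lists were chosen with earlier results of these data known. Named genes were the members, genes overlapping them, cell type markers, and genes among the 4 highest and 4 lowest ratios of each list. Calculations used Python 3.11.15, numpy 2.4.6 and pandas 2.3.3 and were tested on simulated data. The pseudocount, scaling, filter on low FPKM, background genes and fold threshold were varied.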

Additional observations from a re-analysis of the deposited data

How the results depend on the processing

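With a median ratio of processed to live FPKM of 0.932, scaling by it shifted FPKM ratios by 0.10 on the log2 scale, and less at low FPKM because of the pseudocount. The log2 ratio of EGR1 then turned to 0.0149, the member median moved to 0.15, those of the transcription regulators and of the signalling and RNA decay list to -0.0528 and 0.00905, and the count of members lower with separate bounds to 0, while the share of all genes so called went from 43.7% to 35.7% and that of higher genes from 28.1% to 34.8%. Scaling to equal sums without mitochondrial genes gave a member median of 0.11, a transcription regulator median of -0.0922 and 1 member lower with separate bounds. The count of members higher with separate bounds was 5 after scaling to equal sums and 6 under the other two scalings. FOSB alone passed 2-fold, so the count became 1, with a pseudocount of 0.1, without one and under all 3 scalings; at 1.5-fold the count was also 1. Among all genes, a pseudocount of 0.1 put 9.90% above and 10.1% below the 2-fold lines, and 9.51% were below without a pseudocount. The shares above and below were 2.99% and 2.02% at 10 FPKM, 2.04% and 1.92% without a filter, 3.15% and 3.53% for protein-coding genes, and 3.66% and 2.61% within the range of the members. Without a filter, bounds were separate and higher for 12.1% and lower for 23.1%. At 10 FPKM, which leaves out FOSB, the member median was -0.000709, the AP-1 and ATF median -0.10 and the signalling and RNA decay median -0.09. Within the range of the members, the transcription regulator median was -0.35. No paired analysis was possible because each condition has 1 sample. For the same reason no replicate could be left out, and differences cannot be set against replicate error.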
